A study of Mus musculus with 23 samples.

Results

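A group of 9 genes that act in epithelial-mesenchymal transition (EMT) was followed across all 7 groups of a mouse sciatic nerve (SN) RNA-seq study: the transcription factors Snai1, Snai2, Twist1, Twist2, Zeb1 and Prrx1, the cadherins Cdh1 and Cdh2, and the hyaluronan receptor Cd44. They were chosen by name, as 9 of the 43068 genes listed in the deposited files, and all 9 had enough reads to be tested in every comparison. The study set nerve crush beside adult deletion of Dicer or Dgcr8, 2 genes of microRNA (miRNA) biogenesis, to compare the transcripts that change in each. Each library is bulk RNA of a nerve, so fewer cells of a type and less RNA per cell cannot be told apart in any value below.

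The crush experiment used wild-type C57bl6 mice. It holds 4 libraries of crushed SNs at 3 days post crush (3 dpc), 4 of the contralateral SNs of crushed mice, and 3 of uncrushed SNs of mice that served as surgery controls. The inducible knockout (iKO) experiment used mice also labelled C57bl6, homozygous for a floxed Dicer1 or a floxed Dgcr8 allele, in mutants and controls alike. The iKO mice carried a CreERT2 transgene (-/+) and the controls did not (-/-), all were treated with tamoxifen, and SNs were taken 3 months later (3 libraries each of Dicer iKO, Dicer control, Dgcr8 iKO and Dgcr8 control). The transgene is driven by a promoter of myelinating Schwann cells (SCs), so the axons, fibroblasts, vessels and immune cells of the mutant nerves keep both genes, and the study states that the mutants analysed were restricted to affected animals. Per the methods, the crushed nerve piece lay distal to the injury.

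EMT is the program by which sheet-forming epithelial cells lose their junctions and become motile. Snail, Twist and Zeb factors bind E-box sequences, repress Cdh1 (E-cadherin) and favour mesenchymal genes, and a change from Cdh1 to Cdh2 (N-cadherin) with more Cd44 is its textbook sign. In peripheral nerve the same proteins have other roles as well: Cdh1 lies in autotypic junctions within single myelinating SCs, Cdh2 joins SCs to axons and to each other, and SCs turn motile after injury. The miR-200 family represses Zeb1 and Zeb2 in epithelia.

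The miR-200 family is shown here because Zeb1 is its best-known target and because both deletions affect miRNA biogenesis. Each mature sequence (RefSeq, GRCm38.p6) is given 5′ to 3′ with the seed, bases 2 to 8, in capitals. The first 3 share 1 seed and the next 2 share another, and let-7f, whose seed matches the 3′UTR of Snai1, is given for contrast. The study's text calls let-7f abundant in adult SNs and reports lower levels of it in both iKO. It does not name the miR-200 family, whose level in these nerves is not known here.
mmu-miR-200b-3p: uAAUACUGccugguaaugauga
mmu-miR-200c-3p: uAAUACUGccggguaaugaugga
mmu-miR-429-3p: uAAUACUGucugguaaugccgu
mmu-miR-200a-3p: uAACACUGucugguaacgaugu
mmu-miR-141-3p: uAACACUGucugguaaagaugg
mmu-let-7f-5p: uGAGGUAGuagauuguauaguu
Those of miR-200b, miR-200a and miR-429 lie at chr4:156055685-156055706, chr4:156054911-156054932 and chr4:156053916-156053937, and those of miR-200c and miR-141 at chr6:124718324-124718346 and chr6:124717917-124717938, all on the minus strand.

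The complement of the first seed, CAGTATT, stood 5 times in the 2404-base 3′UTR of Zeb1-201, and the complement of the second, CAGTGTT, 4 times. Among 1305 mouse 3′UTRs within 10% of that length, 24.1% hold the first site at least once and 29.3% the second. How many of them hold as many sites as Zeb1-201 was not counted. Snai2 held each site 1 time (13.6% and 14.1% of 3′UTRs of like length hold them) and Snai1 the first site 1 time (7.57%). The longest 3′UTRs of Twist1, Twist2, Prrx1, Cdh1, Cdh2 and Cd44 held neither. The let-7 site CTACCTC stood 2 times in the 734-base 3′UTR of Snai1, where 5.16% of 1202 3′UTRs of like length hold it. It stood 1 time in Prrx1, where 27.0% do. A match of this kind is a run of letters and not a measured interaction. The 5 precursor genes of the family were listed at a summed count of 0 over the 11 crush libraries, which were not made to capture small RNA, and the transcript list of the iKO libraries does not include them.

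RefSeq promoter windows (250 bases before to 50 after the start, GRCm38.p6) matched 5 of the 9 genes: Snai1, Twist1, Twist2, Prrx1 and Cd44. The Snail and Zeb E-box, CAGGTG or its reverse complement CACCTG, was present in the Snai1 window alone of these 5, 126 bases before the start, as against 20.2% of 32851 windows. Any E-box, CANNTG, is found in 72.3% of windows (the Snai1 match is the same site), and the windows of Twist1, Twist2, Prrx1 and Cd44 hold none. The Snai1 window is shown because it holds the match, in capitals, and the Cd44 window because Cd44 had the largest fold change of the 9 genes in each comparison with crushed or iKO nerves.
Snai1 (chr2:167537945-167538244, plus strand): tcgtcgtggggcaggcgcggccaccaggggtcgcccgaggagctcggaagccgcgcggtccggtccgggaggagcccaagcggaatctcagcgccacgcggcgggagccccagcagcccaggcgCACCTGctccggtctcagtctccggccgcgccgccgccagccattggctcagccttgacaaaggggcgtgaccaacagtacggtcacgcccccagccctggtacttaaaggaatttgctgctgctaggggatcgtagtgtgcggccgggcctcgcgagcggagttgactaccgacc
Cd44 (chr2:102901616-102901915, minus strand): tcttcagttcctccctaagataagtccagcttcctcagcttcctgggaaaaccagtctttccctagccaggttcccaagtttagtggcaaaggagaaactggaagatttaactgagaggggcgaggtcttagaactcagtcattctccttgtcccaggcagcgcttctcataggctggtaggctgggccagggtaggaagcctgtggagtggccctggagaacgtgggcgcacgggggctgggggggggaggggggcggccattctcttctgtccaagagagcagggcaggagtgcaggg

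Each value below is the expected count of a gene as CPM (its share of the library's counts, scaled up in the usual way), scaled by the TMM method over the libraries of its experiment. Library totals ran from 5594859 to 12806066 counts, and 3 counts correspond to 0.234 to 0.453 CPM in the crush libraries and 0.296 to 0.536 CPM in the iKO libraries. The deleted genes did not pass the test at gene level, although the Dicer1 ranges did not overlap: Dicer1 stood at 81.0 to 82.8 CPM in Dicer iKO against 88.0 to 91.0 CPM in the Dicer controls (-0.11 on the log2 scale, adjusted p = 0.357), and Dgcr8 at 39.3 to 53.7 CPM in Dgcr8 iKO against 34.9 to 41.9 CPM in the Dgcr8 controls (0.22, adjusted p = 0.233, edgeR's quasi-likelihood test for both). These sums include reads of undeleted exons and of cells without Cre, so they do not check the genotype labels. By quantitative PCR the study reports less Dicer mRNA in Dicer iKO and less Dgcr8 mRNA in Dgcr8 iKO than in their controls. Levels are not compared between the experiments, whose transcript lists differ and whose library kits differ per the labels, while the study's methods name a single kit.

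Relative to contralateral SNs, Cd44, Zeb1, Snai1, Twist1, Twist2 and Snai2 rose in crushed SNs, Cdh1 and Cdh2 fell, and Prrx1 was higher by less than 2-fold. Calls required both a 2-fold difference and a Benjamini-Hochberg adjusted p of at most 0.05, taken over all genes tested, in edgeR's quasi-likelihood test. Crushed against contralateral SNs, 6 of the 9 genes were called higher, where 14.6% of 16667 genes were, and 2 were called lower, where 13.6% were. The median log2 fold change of the 9 was 1.34, beside -0.06 over all genes. The plot of member levels in the crush libraries gives each library.

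**Figure D1:**
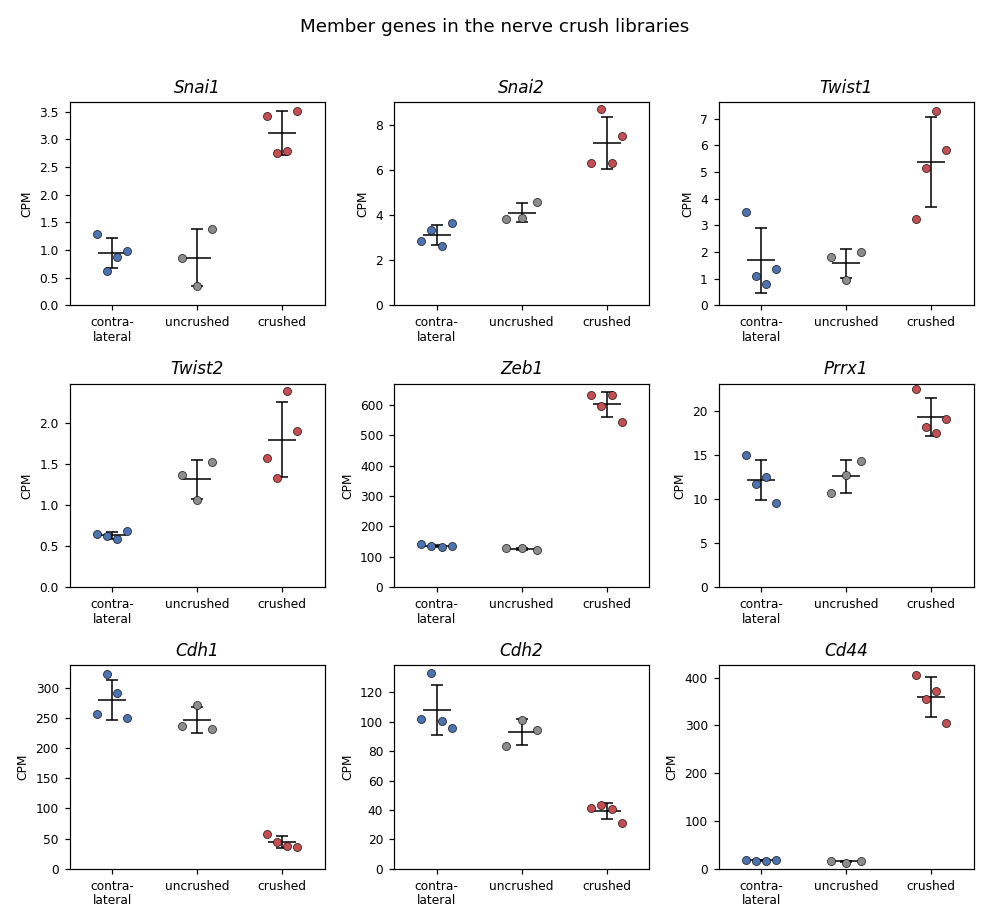
CPM (linear axis, from 0) of each of the 9 genes in contralateral (n = 4), uncrushed (n = 3) and crushed (n = 4) nerves. Points are libraries, and bars are the mean and SD. For Zeb1 and Cd44 the crushed libraries lie far above both other groups, for Cdh1 and Cdh2 below both, while 1 contralateral library at 3.49 CPM of Twist1 lies above the lowest crushed library.

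Zeb1, a zinc finger and homeodomain repressor of Cdh1, is at chr18:5591860-5775467 on the plus strand. It stood at 140.7, 134, 132 and 136 CPM in the 4 contralateral libraries, at 128, 128 and 122 CPM in the uncrushed and at 634, 598, 632 and 543 CPM in the crushed. The crushed libraries did not overlap the others. The log2 fold change was 2.01 ± 0.08 (SE, adjusted p = 1.64e-11, edgeR's quasi-likelihood test) against contralateral SNs, a 4.04-fold rise, and 2.14 ± 0.10 (adjusted p = 4.16e-09) against uncrushed SNs. The contralateral libraries lay just above the uncrushed, in a scaling where ratios of CPM means exceed the fitted log2 fold changes by 0.076. The fitted difference between these controls was 0.03 ± 0.08 (adjusted p = 0.860, same test).

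The Zeb1 count came from coding and non-coding transcripts in like measure, and both had higher levels after crush. Zeb1-201, the coding transcript of 8 exons, held 37.9% ± 3.32 (SD, n = 4) of the gene's count in contralateral SNs and 38.0% ± 1.34 (n = 4) in crushed SNs. Its level went from 45.1 to 59.4 CPM in contralateral libraries to 209 to 238 CPM in crushed libraries. Zeb1-210, a processed transcript with no coding sequence, held 41.5% ± 4.65 and 44.3% ± 1.35, at 49.7 to 60.5 CPM and 240 to 291 CPM. In the iKO experiment, whose list does not include Zeb1-210, Zeb1-201 held between 80.4% and 87.0% of the count as group means. The gene Gm10125 overlaps Zeb1 on the opposite strand and stood at 60.0 to 90.0 CPM in contralateral and 49.9 to 65.7 CPM in crushed libraries, so its level was not higher after crush.

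The paralog Zeb2, which SCs need to differentiate, was at 824 to 934 CPM in contralateral and 1014 to 1296 CPM in crushed SNs, ranges that did not overlap in this scaling. Its log2 fold change was 0.29 ± 0.09 (adjusted p = 0.00872, edgeR's quasi-likelihood test), under the 2-fold threshold. Ratios of CPM means exceed the fitted log2 fold changes by 0.14 in this comparison, so the narrow gap between the ranges rests on the scaling.

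Snai1 and Snai2, the Snail and Slug zinc finger repressors, were both low. Snai1 (chr2:167538195-167542814, plus strand) stood at 1.29, 0.622, 0.881 and 0.985 CPM in contralateral libraries, from 8 to 14 counts each, and at 3.41, 2.76, 2.80 and 3.51 CPM in crushed libraries, from 28 to 39 counts. Every crushed library lay above every contralateral and uncrushed library, and the log2 fold change was 1.59 ± 0.27 (adjusted p = 0.000102, edgeR's quasi-likelihood test), or 1.78 ± 0.37 (adjusted p = 0.00107) against the uncrushed libraries at 0.854, 0.353 and 1.37 CPM. Snai2 (chr16:14705852-14709385, plus strand) stood at 2.85, 3.34, 2.64 and 3.65 CPM in contralateral, 3.85, 3.88 and 4.58 CPM in uncrushed and 6.30, 8.72, 6.29 and 7.53 CPM in crushed libraries. The 3 groups of Snai2 did not overlap, in the order contralateral, uncrushed, crushed. Its log2 fold change was 1.07 ± 0.18 (adjusted p = 8.98e-05) against contralateral SNs and 0.71 ± 0.19 (adjusted p = 0.00617) against uncrushed SNs, where it was under the 2-fold threshold. Against contralateral SNs it was also under 2-fold without contralateral replicate 3 (0.997) and without crushed replicate 2 (0.94).

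Twist1 and Twist2 are basic helix-loop-helix factors of mesenchyme. Twist1 (chr12:33957671-33959829, plus strand) stood at 3.49, 1.09, 0.783 and 1.38 CPM in contralateral libraries and at 3.24, 5.16, 7.29 and 5.82 CPM in crushed libraries. Contralateral replicate 1 lay above crushed replicate 1, and all other crushed libraries lay above all contralateral libraries. The log2 fold change was 1.52 ± 0.37 (adjusted p = 0.00222, edgeR's quasi-likelihood test) and 1.64 ± 0.33 (adjusted p = 0.000961) against uncrushed SNs (1.79, 0.941 and 1.98 CPM), with no overlap there. With 1 library left out the first of these ran from 1.30 to 2.15 (adjusted p of at most 0.0107, same test), the highest without contralateral replicate 1.

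Twist2 (chr1:91801461-91848028, plus strand) depended on the control used. It stood at 0.643, 0.622, 0.587 and 0.690 CPM in contralateral libraries, 6 to 8 counts each, at 1.37, 1.06 and 1.53 CPM in uncrushed libraries, and at 1.58, 1.33, 2.40 and 1.91 CPM in crushed libraries. The crushed range lay above the contralateral range and overlapped the uncrushed range. The log2 fold change was 1.34 ± 0.30 (adjusted p = 0.00132, edgeR's quasi-likelihood test) against contralateral SNs and 0.33 ± 0.33 (adjusted p = 0.382) against uncrushed SNs.

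Prrx1 (chr1:163245119-163313710, minus strand), a paired-type homeobox factor of limb and craniofacial mesenchyme, had the smallest change of the 9 against contralateral SNs. It stood at 15.0, 11.7, 12.5 and 9.56 CPM in contralateral, 10.7, 12.7 and 14.4 CPM in uncrushed and 22.5, 18.2, 17.5 and 19.2 CPM in crushed libraries. The crushed libraries did not overlap the others, with log2 fold changes of 0.53 ± 0.14 (adjusted p = 0.00354, edgeR's quasi-likelihood test) and 0.52 ± 0.14 (adjusted p = 0.00717), both under the 2-fold threshold.

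Cdh1 (chr8:106603351-106670246, plus strand) fell most of the 9 genes after crush. It stood at 257, 322, 290.4 and 250.2 CPM in contralateral, 237, 272 and 232 CPM in uncrushed and 58.3, 43.9, 38.0 and 36.0 CPM in crushed libraries. No crushed library came near the others. The log2 fold change was -2.80 ± 0.14 (adjusted p = 3.56e-10, edgeR's quasi-likelihood test), or 6.98-fold lower, and -2.60 ± 0.15 (adjusted p = 2.19e-08) against uncrushed SNs.

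Cdh2 (chr18:16588877-16809246, minus strand) fell too. It stood at 102, 133, 101 and 95.6 CPM in contralateral, 83.8, 101 and 94.5 CPM in uncrushed and 41.6, 43.6, 40.3 and 31.4 CPM in crushed libraries, again without overlap between crushed and other nerves. The log2 fold change was -1.60 ± 0.12 (adjusted p = 1.93e-08, edgeR's quasi-likelihood test), or 3.04-fold lower, and -1.37 ± 0.11 (adjusted p = 3.64e-07) against uncrushed SNs. Both cadherins of the textbook switch thus had lower levels in crushed than in uninjured nerve, and the Cdh2 level did not move opposite to that of Cdh1.

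Cd44 (chr2:102811141-102901665, minus strand), a surface receptor for hyaluronan and other matrix ligands, had the largest rise. It stood at 18.9, 15.9, 17.2 and 17.9 CPM in contralateral, 16.1, 13.2 and 16.8 CPM in uncrushed and 406, 355, 371 and 305 CPM in crushed libraries. The groups were far apart, with a log2 fold change of 4.22 ± 0.10 (adjusted p = 4.07e-13, edgeR's quasi-likelihood test), an 18.7-fold rise, and 4.42 ± 0.14 (adjusted p = 2.30e-10) against uncrushed SNs. Since CPM is scaled over all 11 libraries and the fit over the 2 groups compared, ratios of CPM means in this comparison exceed the fitted log2 fold changes by 0.14.

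Cd44 reads were assigned to the same transcripts before and after crush. Cd44-203, of 9 exons, held 38.3% ± 5.48 (SD, n = 4) in contralateral and 40.3% ± 1.51 (n = 4) in crushed libraries. Cd44-207, of 14 exons, held 27.2% ± 10.4 and 34.3% ± 2.53, and Cd44-206, of 10 exons, 24.8% ± 1.97 and 21.1% ± 2.13. In the 4 groups of the iKO experiment Cd44-203 and Cd44-207 held 44.5% to 46.2% and 46.7% to 51.8% as group means. Shares of transcripts that overlap in sequence are estimates of the authors' quantification.

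Against uncrushed SNs, 4 of the 9 genes were called higher (Cd44, Zeb1, Snai1 and Twist1), where 15.3% of 17433 genes were, and Cdh1 and Cdh2 were called lower, where 21.1% were. Both crush comparisons use the same 4 crushed libraries. Contralateral and uncrushed SNs were compared to see whether the 2 kinds of control differ. None of the 9 genes and 0 of 17722 genes in all (0%) was called in edgeR's test, while 3165 genes had an unadjusted p under 0.05 and DESeq2 called 20 genes. Snai2 (log2 fold change -0.46 ± 0.21, adjusted p = 0.279) and Twist2 (-1.11 ± 0.36, adjusted p = 0.173) were the 2 members with an unadjusted p under 0.05, both lower in contralateral SNs.

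Compared per transcript length, the ranking of the 9 genes was also another in crushed nerves. TPM, a length-corrected share of transcripts, was expressed as a share of the summed TPM of the 9 genes. Cdh1 held 41.8% ± 2.71 (SD, n = 4) of it in contralateral SNs and was first, followed by Zeb1 at 33.9% ± 2.56 and Cdh2 at 15.3% ± 1.51. In crushed SNs Zeb1 held 57.0% ± 1.26 (n = 4) and Cd44 34.8% ± 1.62, and Cdh1 was at 2.42% ± 0.405 and Cdh2 at 2.16% ± 0.199. Snai1, Snai2, Twist1 and Twist2 each held at most 1.49% in each crush group. In the Dgcr8 controls Cdh1 came first at 46.2% ± 6.49 (n = 3) and Cd44 stood at 4.13% ± 0.0604, and in Dgcr8 iKO Cdh1 and Cd44 were alike at 28.9% ± 0.736 and 28.9% ± 4.42. In the Dicer controls Cdh1 (34.7% ± 7.92, n = 3) and Zeb1 (33.8% ± 5.78) were alike, with Zeb1 first in control 1 (39.9% against 27.1%). In Dicer iKO, Zeb1 came first at 37.8% ± 3.64 (n = 3), with Cd44 at 23.3% ± 1.72 and Cdh1 at 21.0% ± 1.73.

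**Figure D2:**
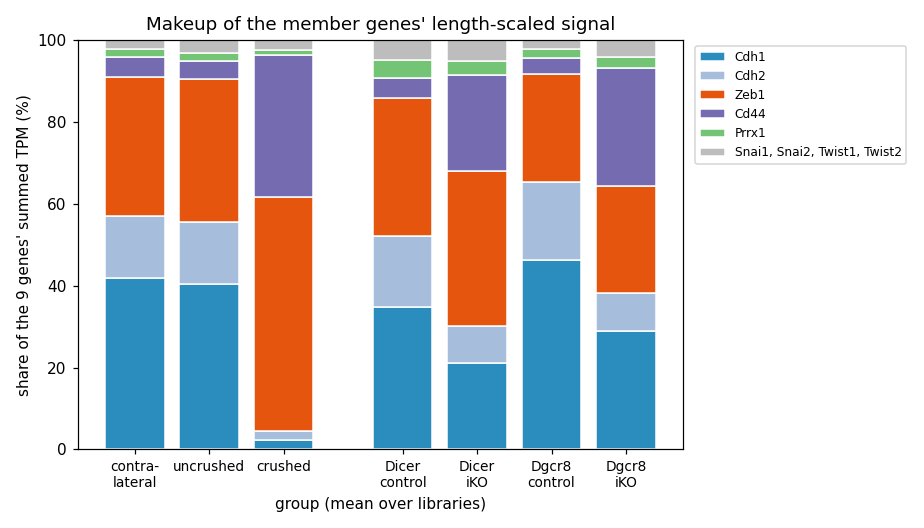
Stacked bars of each gene's share (%) of the 9 genes' summed TPM, as the mean over the libraries of each group (n = 4 for contralateral and crushed, n = 3 for the others). The Cdh1 block shrinks from 41.8% in contralateral to 2.42% in crushed nerves, where Zeb1 and Cd44 fill most of the bar, and the Cd44 block is larger in both iKO groups than in their controls.

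In the adult mutants, Cd44 was the member that rose in both, the cadherins were lower by less than 2-fold in both, and Zeb1 differed little. In Dicer iKO, 1 of the 9 genes was called higher, where 7.37% of 13045 genes were, and 0 lower, where 1.64% were. DESeq2 likewise called none of the 9 lower there, and Cd44, Cdh1 and Cdh2 had an unadjusted p under 0.05. In Dgcr8 iKO, 2 of the 9 were called higher, where 13.4% of 13252 genes were, and 0 lower, where 6.99% were. DESeq2 likewise called none of the 9 lower, while 6 of the 9 were under 0.05 before adjustment. The median log2 fold change of the 9 genes was 0.06 in Dicer iKO and 0.49 in Dgcr8 iKO, beside -0.01 over all genes in each.

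**Figure D3:**
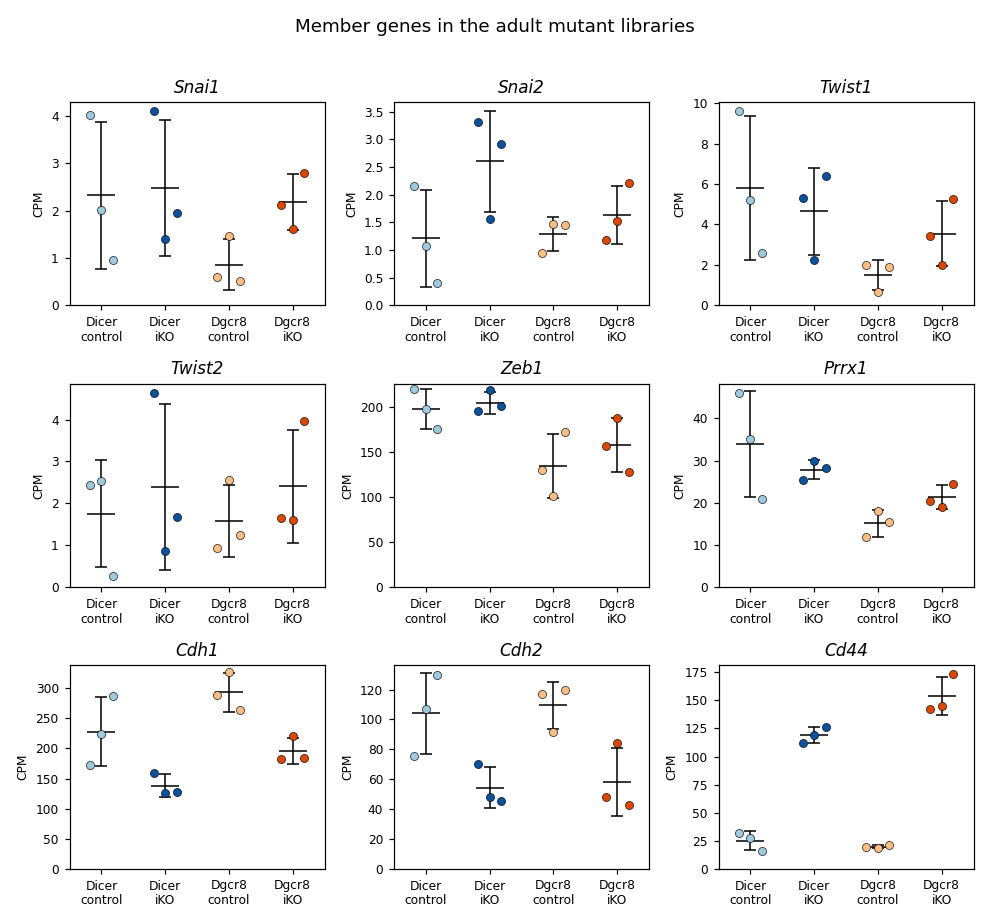
CPM (linear axis, from 0) of each of the 9 genes in Dicer control, Dicer iKO, Dgcr8 control and Dgcr8 iKO nerves (n = 3 each). Points are libraries, and bars are the mean and SD. Cd44 is higher in all 6 iKO libraries than in any control, and the 3 Dicer controls spread widely for Prrx1 (20.9 to 45.9 CPM), Twist1 and Cdh1.

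Cd44 stood at 32.2, 27.0 and 16.3 CPM in Dicer controls and 112, 119 and 126 CPM in Dicer iKO, and at 19.4, 18.9 and 20.9 CPM in Dgcr8 controls and 142, 145 and 173 CPM in Dgcr8 iKO. Neither mutant overlapped its controls. The log2 fold change was 2.25 ± 0.22 (adjusted p = 0.00205, edgeR's quasi-likelihood test) in Dicer iKO and 2.95 ± 0.13 (adjusted p = 2.87e-07) in Dgcr8 iKO, 4.76-fold and 7.75-fold.

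Cdh1 stood at 173, 224 and 287 CPM in Dicer controls and 159.8, 125 and 128 CPM in Dicer iKO, and at 288, 328 and 264 CPM in Dgcr8 controls and 182, 221 and 184 CPM in Dgcr8 iKO. The iKO libraries lay below their own controls in both. The log2 fold changes were -0.72 ± 0.19 (adjusted p = 0.0358, edgeR's quasi-likelihood test) and -0.59 ± 0.14 (adjusted p = 0.00662), under the 2-fold threshold. With 1 library left out, the Dicer iKO value ran from -0.88 to -0.52 and its adjusted p from 0.00975 to 0.146 (same test). The Dgcr8 iKO value ran from -0.68 to -0.50, with an adjusted p of at most 0.0431.

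Cdh2 stood at 75.5, 107 and 129.8 CPM in Dicer controls and 69.9, 47.8 and 45.2 CPM in Dicer iKO, and at 117, 91.5 and 119.6 CPM in Dgcr8 controls and 47.8, 83.9 and 42.5 CPM in Dgcr8 iKO. Again no iKO library reached its controls. The log2 fold changes were -0.93 ± 0.24 (adjusted p = 0.0294, edgeR's quasi-likelihood test) and -0.91 ± 0.23 (adjusted p = 0.00699), just under 2-fold. They passed 2-fold without Dicer control replicate 1 (-1.11), Dicer iKO replicate 1 (-1.15), Dgcr8 control replicate 2 (-1.03) or Dgcr8 iKO replicate 2 (-1.28). With 1 library left out, the Dicer iKO value ran from -1.15 to -0.74 and its adjusted p from 0.00983 to 0.128 (same test). The Dgcr8 iKO value ran from -1.28 to -0.73, with an adjusted p of at most 0.0339.

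Zeb1 stood at 220.1, 198 and 175 CPM in Dicer controls and 195, 219 and 201 CPM in Dicer iKO, and at 129.9, 102 and 172 CPM in Dgcr8 controls and 157, 188 and 128 CPM in Dgcr8 iKO. Mutant and control ranges overlapped in both. The log2 fold changes were 0.06 ± 0.11 (adjusted p = 0.751, edgeR's quasi-likelihood test) and 0.22 ± 0.20 (adjusted p = 0.383).

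Among the other factors Snai1 was called in Dgcr8 iKO, at 2.12, 1.61 and 2.80 CPM against 0.588, 1.47 and 0.519 CPM in the controls, from 5 to 24 counts per library. The ranges did not overlap and the log2 fold change was 1.35 ± 0.48 (adjusted p = 0.0392, edgeR's quasi-likelihood test). The call rests on few reads: it was lost with DESeq2 (adjusted p = 0.0603), and without Dgcr8 control replicate 1 (0.143) or 3 (0.146) or Dgcr8 iKO replicate 1 (0.0883) or 3 (0.125). Over all 11 alternatives that tested it, the adjusted p ran from 0.0149 to 0.146.

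Twist1 had a log2 fold change of 1.18 ± 0.46 in Dgcr8 iKO (adjusted p = 0.0587, edgeR's quasi-likelihood test), beside 3.41, 1.99 and 5.24 CPM against 2.0, 0.670 and 1.87 CPM. The lowest mutant library lay just under the highest control. Prrx1 stood at 20.5, 19.0 and 24.5 CPM in Dgcr8 iKO against 11.8, 18.1 and 15.5 CPM in controls, without overlap, and differed by 0.49 ± 0.18 (adjusted p = 0.0496), under 2-fold. Snai2 and Twist2 had log2 fold changes of 0.33 ± 0.41 and 0.61 ± 0.49 there, with overlapping ranges.

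In Dicer iKO the 5 remaining factors were not called, and each overlapped its controls. Snai2 had the largest difference, with a log2 fold change of 1.13 ± 0.57 (adjusted p = 0.195, edgeR's quasi-likelihood test). The 3 Dicer controls lay apart from each other in several members: controls 1, 2 and 3 had 45.9, 35.0 and 20.9 CPM of Prrx1, 9.62, 5.22 and 2.58 CPM of Twist1 and 4.02, 2.01 and 0.950 CPM of Snai1, while Cdh1 and Cdh2 were highest in control 3. The summed CPM of 8 nerve fibroblast markers (Pdgfra, Dcn, Lum and 5 others) was 10606, 7857 and 3600.5 in these 3 libraries, and its part in these values was not tested.

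**Figure D4:**
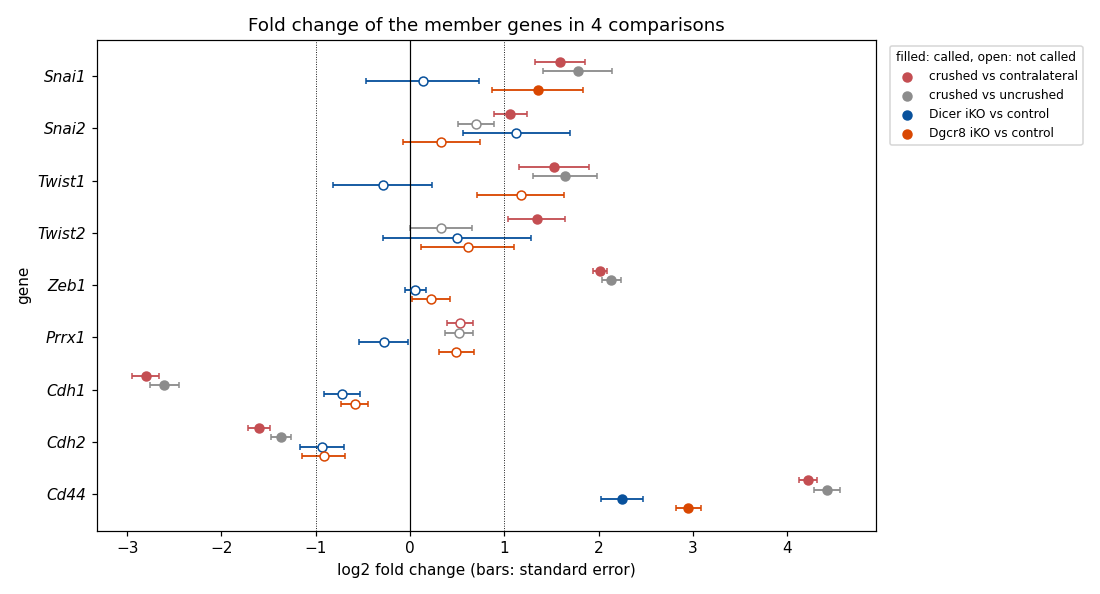
Log2 fold change (x axis, bars are standard errors) of each of the 9 genes in 4 comparisons. Filled points passed the 2-fold and adjusted p thresholds, open points did not, and dotted lines mark a log2 fold change of -1 and 1. Cd44 is filled in all 4 comparisons, and Zeb1 lies at 2.01 and 2.14 after crush but at 0.06 and 0.22 in the mutants.

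Whether the mutants differ from each other was tested as an interaction over the 12 iKO libraries. None of the 9 genes passed an adjusted p of 0.05, and 2 of 13552 genes (0.0148%) did. DESeq2 called 240 genes and none of the 9. The Cd44 difference between mutants was 0.71 ± 0.26 on the log2 scale (adjusted p = 0.270, unadjusted p = 0.0167, edgeR's quasi-likelihood test). Without Dicer control replicate 3, Cd44 (0.94, adjusted p = 0.0154) and Prrx1 (1.03, adjusted p = 0.0475) passed.

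Whether the change after crush (crushed against contralateral SNs) differs from the change in a mutant was tested in the same way, as the difference of the log2 fold changes, a comparison added after the data had been seen. The experiment is confounded with the kit named in the labels, the time point and the kind of control, which cannot be told apart from the kind of change. Against Dgcr8 iKO, Cd44 (1.31 ± 0.16, adjusted p = 4.16e-06, edgeR's quasi-likelihood test) and Zeb1 (1.83 ± 0.21, adjusted p = 2.63e-06) had a higher log2 fold change after crush, 2 of 9 where 21.0% of 14738 genes had. Cdh1 had a lower log2 fold change after crush (-2.17 ± 0.20, adjusted p = 3.03e-07), 1 of 9 where 16.4% had. Cdh2 did not pass (-0.64 ± 0.26, adjusted p = 0.0604), but did with RLE size factors (adjusted p = 0.0320) and with DESeq2 (0.0225).

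Against Dicer iKO, Cd44 (2.01 ± 0.21, adjusted p = 2.67e-06, edgeR's quasi-likelihood test), Zeb1 (1.99 ± 0.11, adjusted p = 7.76e-09), Prrx1 (0.85 ± 0.29, adjusted p = 0.0275) and Twist1 (1.84 ± 0.69, adjusted p = 0.0450) had a higher log2 fold change after crush, 4 of 9 where 23.1% of 14626 genes had. In Dicer iKO itself, Prrx1 (-0.28 ± 0.26) and Twist1 (-0.29 ± 0.52) lay below 0 and were not called. Cdh1 had a lower log2 fold change after crush (-2.04 ± 0.26, adjusted p = 1.41e-05), where 17.3% of genes had. The Twist1 call held in 6 of 18 alternatives and the Prrx1 call in 13 of 19, while the Cd44, Zeb1 and Cdh1 calls held in all 19 in both tests.

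Cell type markers moved in the same comparisons. Of 10 macrophage markers, 9 were called higher after crush, and their summed CPM ran from 96.3 to 182 in contralateral, 148 to 153 in uncrushed and 595 to 1028 in crushed libraries. In the mutants 6 of 10 were called higher in Dicer iKO (903 to 1186 CPM, controls 256 to 637) and 7 of 10 in Dgcr8 iKO (623 to 1073 CPM, controls 260 to 309), where 1 was called lower. None of the 10 was at 0 in any group. Crushed replicate 1 had the lowest macrophage sum of the crushed libraries (595 CPM) and the highest Cd44 (406 CPM). Dicer control replicate 1, with a macrophage sum of 637 CPM, had 32.2 CPM of Cd44, and Dgcr8 iKO replicate 2, with a sum of 623 CPM, had 145 CPM. Within Dicer iKO, Dicer control and Dgcr8 control, Cd44 was in the same order as the macrophage sum over the 3 libraries of each group, and the Dgcr8 iKO library with the highest sum (1073 CPM) also had the most Cd44 (173 CPM). Cd44 is expressed by macrophages as well as by SCs and fibroblasts, and the part of these cells in its rise was not tested.

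**Figure D5:**
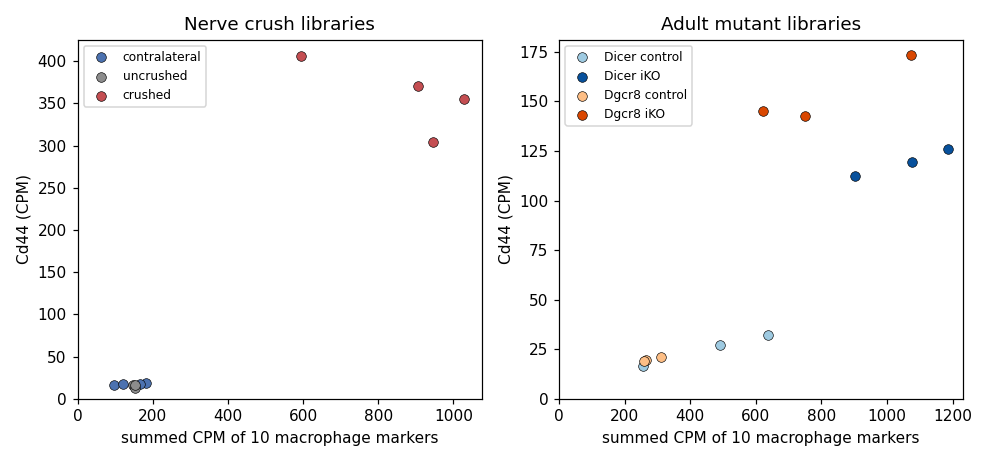
Cd44 level (y axis, CPM) against the summed CPM of 10 macrophage markers (x axis) in each library, with the crush libraries on the left and the iKO libraries on the right. Crushed and iKO libraries lie above all others on the Cd44 axis, within the crushed group the library with the fewest macrophage reads has the most Cd44, and within Dicer iKO, Dicer control and Dgcr8 control Cd44 is in the order of the macrophage sum.

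Of 7 myelinating SC markers (Mbp, Pmp22, Prx and 4 others), 6 were called lower after crush, from a sum of 25326 to 31991 CPM in contralateral to 1809.5 to 2668 CPM in crushed libraries. This list moved with Cdh1 and Cdh2. In Dgcr8 iKO 3 of 7 were called lower (11034 to 21032 CPM, controls 31758 to 36838), and in Dicer iKO 0 of 7 were, by edgeR and by DESeq2 (17547 to 22416 CPM, controls 23366 to 38360). The SC lineage markers moved both ways after crush, and their sum rose from 998 to 1240 CPM in contralateral to 1307 to 1837 CPM in crushed libraries. Sox10 (236 to 306 and 98.2 to 146 CPM), S100b and Erbb3 lay lower after crush. Ngfr (35.1 to 46.5 and 915 to 1311 CPM), Foxd3 and Gap43 lay higher, and the ranges of Ncam1 and L1cam overlapped. The SC lineage sum overlapped the controls in both mutants. Of 8 nerve fibroblast markers, 2 were called higher and 2 lower after crush, 2 higher and 1 lower in Dgcr8 iKO and 1 higher in Dicer iKO. Their sum was 5828 to 6894 CPM in Dgcr8 iKO and 3484 to 4511 CPM in its controls, and it overlapped between Dicer iKO and its controls and between crushed and contralateral libraries (977 to 1586 and 1348 to 2091 CPM), while uncrushed libraries stood higher than the crushed ones, at 1693 to 1822 CPM. Of 6 endothelial markers, 2 were called higher after crush (130 to 152 CPM in contralateral, 180 to 220.1 CPM in crushed libraries), 1 lower in Dgcr8 iKO and 0, by edgeR and by DESeq2, in Dicer iKO. The endothelial sum was lower in Dicer iKO (166 to 182 CPM, controls 245 to 267) and in Dgcr8 iKO (169 to 234 CPM, controls 266 to 301). Of 6 perineurial markers, 5 had enough reads after crush and 1, Itgb4, was called lower (297 to 402 CPM in contralateral, 76.8 to 103 CPM in crushed libraries), while the ranges of Cldn1, Moxd1 and Ntn4 overlapped. Itgb4 made up most of the fall of the perineurial sum from 360.3 to 467 CPM in contralateral to 130 to 146 CPM in crushed libraries. In the mutants 1 of 6 was called lower in Dicer iKO and 3 of 6 higher in Dgcr8 iKO, with sums that overlapped their controls. Of 5 T cell markers, 1 had enough reads in Dicer iKO, Cd4, and was called higher. The T cell sum there was 11.1 to 26.9 CPM (controls 0.679 to 2.30), of which Cd4 made up at most 25.9 CPM (controls 0.136 to 1.58), while Cd3d, Cd3e and Cd3g were at most 0.695 CPM and overlapped their controls. In Dgcr8 iKO the T cell sum was 16.7 to 24.8 CPM (controls 0.134 to 0.519), with Cd4 at 9.58 to 21.9 CPM and Cd3g at 1.16 to 3.51 CPM, and Cd3e and Cd3g were at 0 in all 3 Dgcr8 controls. The part of these cells in the values of the 9 genes was not tested.

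Other cadherins were called in both directions after crush, at shares near those over all genes (14.6% higher, 13.6% lower). Of 21 other classical and related cadherins, 13 had enough reads, of which 2 were called higher, 2 lower and 9 neither (median log2 fold change -0.25). Cdh3, P-cadherin, fell from 11.4 to 18.4 CPM in contralateral to 0.200 to 0.803 CPM in crushed libraries (-4.94 ± 0.30, adjusted p = 2.32e-09, edgeR's quasi-likelihood test). Cdh4 fell (-1.15 ± 0.32, adjusted p = 0.00626), while Cdh11, a mesenchymal cadherin (1.29 ± 0.18, adjusted p = 2.35e-05), and Cdh5, the endothelial cadherin (1.17 ± 0.08, adjusted p = 1.57e-08), rose. Cdh19, a cadherin of the SC lineage, stood at 305 to 345 CPM in contralateral and 499 to 601 CPM in crushed libraries (0.63 ± 0.08, adjusted p = 6.89e-06), under 2-fold.

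Of 14 catenins and adherens junction partners, 1 was called higher, 4 lower and 9 neither (median -0.25). Ctnna3, αT-catenin, fell from 177 to 202 CPM to 8.79 to 11.6 CPM (-4.41 ± 0.11, adjusted p = 5.05e-13, edgeR's quasi-likelihood test), and Arvcf, a p120-type catenin, fell from 60.1 to 77.0 CPM to 7.13 to 9.49 CPM (-3.22 ± 0.12, adjusted p = 1.18e-11). Ctnna2 fell (-2.08 ± 0.20) and Pkp4 rose (1.60 ± 0.09), and the common β-catenin gene Ctnnb1 had a log2 fold change of -0.02 ± 0.08 (adjusted p = 0.837). In Dgcr8 iKO, Cdh3 (-1.64 ± 0.27), Ctnna3 (-1.56 ± 0.13), Arvcf (-1.09 ± 0.13) and the low-count genes Cdh18 (-2.84 ± 0.49) and Ctnnd2 (-1.95 ± 0.61) were called lower. Cdh6 (3.12 ± 0.26), Cdh11 (1.44 ± 0.16) and Cdh20 (1.36 ± 0.39) were called higher there, in all 3 higher and 2 lower of 11 cadherins tested and 3 lower of 14 catenins and partners. Cdh6 stood at 10.9 to 14.1 CPM in Dgcr8 iKO and 1.14 to 1.74 CPM in controls, while after crush its log2 fold change was -0.17 ± 0.22 (adjusted p = 0.511).

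Few epithelial genes other than Cdh1 had enough reads to be tested. Of 20 epithelial genes (keratins, claudins, Epcam, Grhl, Ovol and Esrp factors among them) 5 had enough reads in the crush comparison, and 1, Dsp, the desmosomal protein desmoplakin, was called lower (-1.10 ± 0.27, adjusted p = 0.00260, edgeR's quasi-likelihood test). Epcam, a defining marker of epithelium, was at 0 to 0.353 CPM over the 7 groups. Krt19 was called higher in Dgcr8 iKO (1.90 ± 0.48, adjusted p = 0.00809), at 9.32 to 13.8 CPM against 0.706 to 5.92 CPM.

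Of 12 other EMT transcription factors and E-protein partners, 9 were tested after crush, 2 were called higher and 0 lower by edgeR and by DESeq2 (median 0.37). Sox4, a SoxC factor, rose from 6.80 to 8.18 CPM in contralateral to 140 to 183 CPM in crushed libraries (4.31 ± 0.10, adjusted p = 4.07e-13, edgeR's quasi-likelihood test), and Foxc2 rose at low level (1.43 ± 0.18, adjusted p = 8.10e-06). Sox4 was the 1 gene of this list called higher in Dgcr8 iKO (4.30 ± 0.18, adjusted p = 2.87e-07), from 4.56 to 6.59 CPM to 90.5 to 121 CPM, and in Dicer iKO (2.26 ± 0.31, adjusted p = 0.00407).

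All 21 mesenchymal effector genes were tested. After crush 11 were called higher and 4 lower (median 1.14), in Dicer iKO 9 and 1 (median 0.95), and in Dgcr8 iKO 13 and 3 (median 1.21). The matrix glycoprotein gene Tnc rose from 7.78 to 12.8 CPM to 224 to 348 CPM after crush (4.70 ± 0.16, adjusted p = 7.69e-12, edgeR's quasi-likelihood test), beside the protease Mmp9 (4.47 ± 0.29) and the matrix gene Postn (4.18 ± 0.17). In Dgcr8 iKO, Postn rose from 6.30 to 12.3 CPM to 629 to 930 CPM (6.46 ± 0.28, adjusted p = 2.87e-07), with Tnc (2.72 ± 0.18) and the membrane protease Mmp14 (2.46 ± 0.14). Not all members moved as the name of the list says: Lox (-4.07 ± 0.21), Tagln (-2.04 ± 0.11) and Sparc (-1.42 ± 0.10), a collagen cross-linking enzyme, a smooth muscle actin binder and a matrix protein, fell after crush, and Tagln (-1.61 ± 0.18), Mmp9 (-1.19 ± 0.35) and Lox (-1.01 ± 0.17) fell in Dgcr8 iKO.

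The genes around CD44, its ligands, the hyaluronan enzymes and receptors and the ezrin-radixin-moesin (ERM) linkers that tie it to actin, were tested as a list of 19. Of 17 with enough reads, 9 were called higher and 1 lower after crush (median 1.03). The hyaluronidase gene Hyal1 rose from 7.08 to 8.77 CPM to 57.6 to 87.2 CPM (3.05 ± 0.14, adjusted p = 1.49e-10, edgeR's quasi-likelihood test), beside the hyaluronan receptors Hmmr (2.94 ± 0.14), which also marks dividing cells, and Lyve1 (2.27 ± 0.18). The hyaluronan synthase gene Has3 fell at low level (-1.11 ± 0.31). In Dgcr8 iKO 5 of 16 were called higher and 0 lower by edgeR, with 1 lower by DESeq2 (median 0.52), led by Hmmr (3.68 ± 0.28), Stab2 (3.05 ± 0.62) and Stab1 (2.05 ± 0.31). Stab1 and Lyve1 are also known from macrophages and lymphatic vessels. In Dicer iKO Hmmr (log2 fold change 4.2 ± 0.45) and Stab1 (1.77 ± 0.28) were called higher and Lyve1 (-1.37 ± 0.35) lower, of 15 tested (median 0.42).

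For each of the 9 genes the 2 genes nearest to it were found by the Euclidean distance of the log2 fold changes in 4 comparisons (both crush comparisons, Dicer iKO and Dgcr8 iKO) over 11990 genes, as a description. Cd44 was nearest to Itgam, a macrophage and granulocyte integrin (distance 0.52), and to the chemokine gene Ccl9 (0.52). Zeb1 was nearest to Nedd4l, a ubiquitin ligase (0.05), and Rfc4, a subunit of the replication clamp loader (0.21). Cdh1 was nearest to Tmem56 (0.18) and Dkk3 (0.23), and Cdh2 to Dock9 (0.16) and Mxi1 (0.17). Snai1 had Spred3 (0.29) and Twist1 had C1qtnf5 (0.15) among the nearest, Snai2 was nearest to Cenpl (0.25) and Mndal (0.31), Prrx1 to Foxp2 (0.16) and Grasp (0.17), and Twist2 to an unnamed gene, ENSMUSG00000104565 (0.36), and Astn2 (0.41). Both crush comparisons share the crushed libraries, so they are not independent in this distance.

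Within the crush experiment the group means of Snai1, Twist1, Zeb1 and Cd44 were in the order crushed, contralateral, uncrushed. For Snai2, Twist2 and Prrx1 the order was crushed, uncrushed, contralateral, and for Cdh1 and Cdh2 it was contralateral, uncrushed, crushed. The contralateral and uncrushed ranges overlapped for Snai1, Twist1, Prrx1, Cdh1, Cdh2 and Cd44 and did not for Snai2, Twist2 and Zeb1. How often such ranges do not overlap over all genes was not counted, and 0 of 17722 genes were called between these controls. For Zeb1 the gap was narrow in the scaling over all crush libraries, and the fitted log2 fold change was 0.03. Within the iKO experiment the highest group by mean was Dgcr8 iKO for Cd44 (154 CPM) and Twist2 (2.41 CPM). Dicer control was highest for Twist1 (5.80 CPM) and Prrx1 (33.96 CPM), Dicer iKO for Snai1 (2.48 CPM), Snai2 (2.60 CPM) and Zeb1 (205 CPM), and Dgcr8 control for Cdh1 (293 CPM) and Cdh2 (109 CPM). Of these, the Cd44 range of Dgcr8 iKO (142 to 173 CPM) lay above that of the next group, Dicer iKO (112 to 126 CPM), and the leading range of each of the other 8 genes overlapped the next one.

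Reads shared with neighbouring genes limit some of these values. Annotated genes overlap Twist2, Prrx1, Cd44, Zeb1 and Cdh2, on the opposite strand at least in part, and none overlaps Snai1, Snai2, Twist1 or Cdh1. Apart from Gm10125 at Zeb1, with up to 1340 counts in a crush library, these held at most 16 counts in any crush library. The library kits keep strand, but whether the counting used it is not given in the sources used here.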

How the data were processed

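RNA-seq libraries of 23 SNs were analysed, 11 of the crush and 12 of the iKO experiment, each grouped by its GEO label. Per the labels and the study's methods, the authors trimmed reads with Trimmomatic and quantified transcripts with RSEM on GRCm38. The deposited files hold an expected count, a TPM and an FPKM value per transcript. From the deposited expected counts, gene totals were formed over transcripts and rounded to whole numbers, the deposited TPM was used only to compare genes within a library, and the deposited FPKM was not used. Gene IDs were matched to GRCm38 symbols for 42365 of 43068 genes in the crush and 22570 of 22880 in the iKO files. The uncrushed library titled replicate 3 is numbered differently in its description, and the title was used.

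Each comparison was fitted over its own groups with edgeR 4.0.16 (limma 3.58.1, R 4.3.3): filterByExpr at a minimum count of 10, TMM scaling, the quasi-likelihood test and Benjamini-Hochberg adjustment over all genes tested, with SE taken as the log2 fold change over the square root of F. Differences between effects were called at an adjusted p of at most 0.05 with no fold limit. The fits were tested on simulated data, and for crushed against contralateral SNs (16667 genes) 199 of 200 genes changed by 2 on the log2 scale were found, with 4 false calls. The fewest found were 184, for the crush effect against the Dicer iKO effect. The most false calls were 12, for the crush effect against the Dgcr8 iKO effect. The changed genes had a mean log2 CPM above 1, so genes of lower level and smaller changes were not tried. Alternatives were RLE size factors, no filter on counts, at least 10 counts in every library, DESeq2 1.42.0, all groups in 1 fit, a replicate block and each library left out. The 9 genes and the companion and marker lists were chosen with earlier results of these data known. The text names, besides the 9, up to 3 genes called in each direction per companion list, those with the largest log2 fold change after crush and in Dgcr8 iKO. Zeb2, Cdh19, Ctnnb1, Epcam and the values of list genes in further comparisons were chosen after their values were seen. Correlations of the deviations of same-numbered libraries ran from -0.17 to 0.18 and in no comparison did every pair exceed 0.1, so the numbers were not taken to pair libraries. No pair of replicates (27 pairs) agreed within sampling noise. The labels name separate samples, and the 3-count floors mark low levels and do not measure counting error. Sequences are from RefSeq and 3′UTRs from GENCODE annotation of GRCm38. Results that need certain genes are not reported here, and 1 such gene was left out of the marker list of myelinating SCs.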

Additional observations from a re-analysis of the deposited data

How the results depend on the processing

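The calls of Cd44, Zeb1, Cdh1 and Cdh2 after crush held in all 14 alternatives against contralateral and all 13 against uncrushed SNs. Requiring at least 10 counts in every library left 3 of the 9 genes called higher against contralateral and 2 against uncrushed SNs, and 1747 genes in all in the latter, since low-count members are then not tested. In contralateral against uncrushed SNs, 13 genes were called higher and 128 lower with no filter on counts, and 20 were lower with DESeq2, 6 with the replicate block, 1 with all groups in 1 fit and 0 to 95 with 1 library left out. Unsettled signs there were those of Twist1 (-0.61 to 0.25), Snai1 (-0.27 to 0.52) and Prrx1 (-0.23 to 0.021). In Dicer iKO the replicate block left 548 genes higher and 92 lower, and leaving out 1 library gave 515 to 1093 higher and 57 to 375 lower (lowest without iKO replicate 3, most lower without iKO replicate 1), 0 to 1 of the 9 being lower. Signs turned there for Twist1 (-0.64 to 0.28), Snai1 (-0.44 to 0.77), Twist2 (-0.41 to 0.87) and Zeb1 (-0.024 to 0.14). In Dgcr8 iKO 1 of the 9 was higher with at least 10 counts in every library, DESeq2 or all groups in 1 fit, 1 to 3 were higher and 0 to 1 lower with 1 library left out, and under the replicate block Snai1 lost its call (adjusted p = 0.0775) and Twist1 gained one (0.0274).
Between the mutants, all genes called numbered 172 higher and 68 lower with DESeq2, 17 and 3 with no filter on counts, 0 and 0 with at least 10 counts in every library or the replicate block, 0 lower with RLE size factors, and 0 to 320 higher and 0 to 81 lower with 1 library left out, the highest without Dicer control replicate 3, where 2 of the 9 were higher. Signs turned for Twist2 (-0.42 to 1.05), Cdh1 (-0.066 to 0.30) and Cdh2 (-0.34 to 0.25, and -0.043 with the replicate block). Between crush and Dgcr8 iKO, Cdh2 made 2 of the 9 lower with RLE size factors, at least 10 counts in every library or DESeq2 and 1 to 2 with 1 library left out, and all genes higher numbered 1868 (without crushed replicate 3) to 3199, and 1907 without contralateral replicate 4. Prrx1 turned sign (-0.00403 with RLE size factors, -0.00423 with DESeq2, -0.17 to 0.24 with 1 library left out), as did Snai1 (-0.28 to 0.57). Between crush and Dicer iKO, 2 of the 9 were lower with RLE size factors, at least 10 counts in every library or DESeq2 and 1 to 2 with 1 library left out, 2 to 5 were higher, and Snai2 turned sign (0.045 with no filter, -0.70 to 0.36 with 1 library left out). The cause of these shifts was not tested.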
